A study of Mus musculus with 50 samples.

Results

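The 9 genes described here encode proteins of superoxide, itaconate and nitric oxide synthesis and of arginine use in phagocytes. They were chosen by symbol from the 53700 genes of the count tables. Cybb, Cyba, Ncf1 and Ncf4 encode parts of the phagocyte NADPH oxidase, Acod1 encodes the enzyme that makes itaconate, and Nos2, Gch1, Arg2 and Ass1 belong to nitric oxide synthesis and arginine use. Each symbol matched 1 gene, and all 9 are followed through all 6 groups of the study. Expression was measured as poly-A RNA of microglia sorted from the hippocampus of male C57BL/6J mice as CD45int CD11b+ cells, with 1 library per mouse. Early-life stress (ELS) was given by limited bedding and nesting material from P2 to P9, and control (CTR) litters had standard material. The groups were P9-CTR (n = 12) and P9-ELS (n = 13), taken at postnatal day 9 without injection, and at postnatal day 200 CTR-PBS (n = 7), ELS-PBS (n = 6), CTR-LPS (n = 7) and ELS-LPS (n = 5). The P200 mice had 3 h earlier been given an intraperitoneal injection of PBS, or of LPS, a lipid of bacterial outer membranes that is sensed by innate immune cells, at 1 mg/kg. No transgene was used, and the mice within a group were separate animals. Several labels share their first number, which was taken as a nest though no source used here defines it. By this number P9-CTR came from 5 nests, P9-ELS from 4 and each P200 group from 5. Litters, not single mice, were assigned to ELS or CTR, so mice of a nest are not independent replicates of the condition.

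As background, the NADPH oxidase of phagocytes moves electrons across a membrane onto oxygen and so forms superoxide. Its membrane core is a pair of proteins, the catalytic gp91phox (Cybb) and p22phox (Cyba), and the enzyme is switched on when cytosolic proteins that include p47phox (Ncf1) and p40phox (Ncf4) join this core. Acod1 removes a carboxyl group from the citrate cycle intermediate cis-aconitate to give itaconate, which acts on succinate dehydrogenase and on inflammatory signalling. Nos2, the inducible nitric oxide synthase, makes nitric oxide from arginine and needs tetrahydrobiopterin, whose synthesis starts with Gch1. Ass1 takes part in making arginine again from citrulline, and Arg2, the mitochondrial arginase, uses arginine up.

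Libraries held 5152838 to 42231258 counts (median 19960409.5). In 3 libraries fewer genes had a count than in any other, namely 12482 in mouse P9_19.3_ELS, 12854 in mouse P200_1.1_CTR_PBS and 15731 in mouse P9_19.2_ELS, and calls that change without them are given both ways. No pair of libraries of a group agreed within sampling noise. All 10 microglia markers had counts in every group, with summed levels of 39258 to 71819 CPM (counts scaled to a common library size with the TMM method) at P9 and 69306 to 91013 at P200. Of 9 tested genes of a list of LPS response genes, 8 were called higher after LPS in CTR and 8 in ELS. Of all tested genes 9.62% (CTR) and 7.86% (ELS) were called in either direction.

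The 9 genes differed widely in level. Compared per length, as CPM per kilobase of exon, the medians in CTR-PBS were 527 for Cyba, 60.6 for Ncf1, 35.7 for Ncf4, 2.74 for Arg2, 0.27 for Cybb, 0.173 for Gch1, 0.0191 for Ass1, 0.0148 for Acod1 and 0 for Nos2. Cyba lay above Ncf1, and Ncf4 above Arg2, in every mouse, while the other neighbours in this order overlapped. The ranges were 45.4 to 68.3 for Ncf1, 26.3 to 86.4 for Ncf4, 0.979 to 2.87 for Arg2, 0.146 to 3.08 for Cybb, 0 to 0.287 for Gch1, 0 to 0.302 for Ass1 and 0 to 1.03 for Acod1. The membrane partners stood far apart, and the ratio of Cyba to Cybb per length had a median of 333 in P9-CTR, 299 in P9-ELS, 1638 in CTR-PBS, 1240 in ELS-PBS, 596 in CTR-LPS and 428 in ELS-LPS. In this ratio the mice of all 6 groups overlapped, with 270 to 3015 in CTR-PBS and 187 to 22662 in CTR-LPS. The ratio of 22662 came from mouse P200_5.3_CTR_LPS, with only 2 counts of Cybb. That of 270 came from mouse P200_1.1_CTR_PBS, with few detected genes. The ratio of Ncf1 to Ncf4 had medians between 1.70 and 2.45 in the 6 groups. Single mice ran from 0.137 to 3.67 in P9-ELS and from 0.635 to 2.44 in CTR-PBS. In the annotation of GRCm39, exon bases are shared with a gene on the opposite strand by Cybb (chrX:9301491-9354010, minus strand, with Xk), Cyba (chr8:123150422-123159706, minus strand, with Il17c), Ncf1 (chr5:134248907-134258479, minus strand, with Gtf2ird2), Acod1 (chr14:103284413-103294009, plus strand, with Gm41235), Nos2 (chr11:78811613-78851080, plus strand, with Gm71838) and Arg2 (chr12:79177524-79203075, plus strand, with Gm48780 and Vti1b). The strand setting of the counting is not given in the sources used here. Reads that fall in the shared bases therefore cannot be assigned to these genes or to their opposite partners, and the length shared is not reported here. No such partner was found for Ncf4 (chr15:78128982-78146784, plus strand), Gch1 (chr14:47391346-47426915, minus strand) or Ass1 (chr2:31352181-31410862, plus strand).

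**Figure D1:**
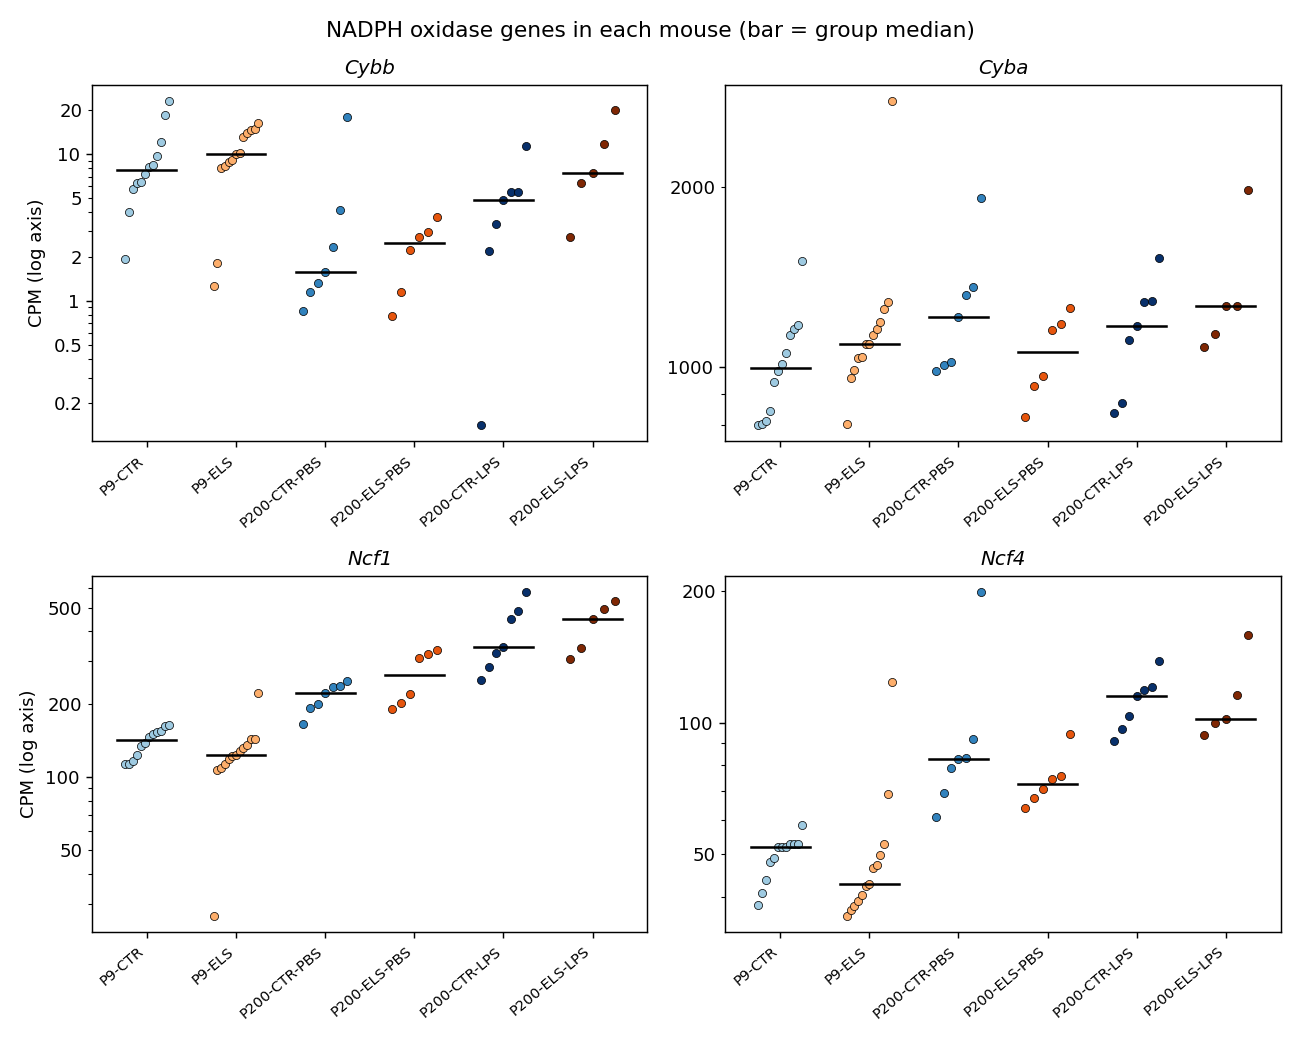
CPM of Cybb, Cyba, Ncf1 and Ncf4 on log axes, 1 point per mouse and 1 bar per group median, in the 6 groups. The CTR-LPS mice lie above all CTR-PBS mice for Ncf1 only, and mouse P200_1.1_CTR_PBS stands above the others of its group for Cybb (17.9 CPM), Cyba (1914 CPM) and Ncf4 (199 CPM).

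The first question was how adult microglia changed the 9 genes 3 h after LPS. In CTR mice Gch1 rose about 9-fold and Ncf1 less than 2-fold. In ELS mice Gch1, Ncf1, Cybb and Acod1 rose, and Nos2 had counts in 3 of 5 mice after none with PBS. In CTR mice the medians of Cybb (1.57 to 4.87 CPM) and Acod1 (0.0389 to 1.26 CPM) were also higher with LPS, without passing the test. Nos2 had counts in 3 of 7 CTR-LPS mice and in 1 of 7 CTR-PBS mice. Calls needed an adjusted p below 0.05 and an absolute log2 fold change over 1. By this rule 1 of 8 tested members was called in CTR (Gch1), beside 9.62% of all 16696 tested genes, and 3 of 8 in ELS (Cybb, Acod1 and Gch1), beside 7.86%. The Cybb and Gch1 calls in ELS were each lost when any of 4 single mice was left out. No member was called for the interaction of LPS and condition. Over the 8 members the median change on the log2 scale was 0.59 in CTR mice and 1.39 in ELS mice, against 0.00 and -0.04 over all tested genes. The ELS median was the same with Acod1, at 0 in all ELS-PBS mice, set to its bound given with that gene. Members were chosen with earlier results of these data known, so these medians are no independent test against all genes. Without mouse P200_1.1_CTR_PBS the CTR changes of Cybb, Ncf4 and Acod1 were higher and those of Ncf1 and Gch1 lower. The CTR median without that mouse was not computed, so the medians of the conditions cannot show a difference between them. Nos2 was not among the 8, since it missed the filter on low counts, which was set on library totals without TMM factors.

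Of the oxidase genes, Ncf1 changed with LPS in both conditions. Its level was 166 to 250 CPM (median 222) in CTR-PBS and 252 to 581 (median 345) in CTR-LPS. The lowest LPS mouse was above the highest PBS mouse. The log2 fold change was 0.86 (SE 0.21, edgeR adjusted p = 0.00249), and an exact permutation test of log2 CPM gave p = 0.000583, the smallest that 7 against 7 mice allow. In ELS-PBS Ncf1 was between 192 and 335 CPM (median 264), and the 5 ELS-LPS mice had 306, 340, 448, 494 and 533 CPM. These groups overlapped, and the log2 fold change of 0.69 (SE 0.24, edgeR adjusted p = 0.0443) lost the threshold when any one of 6 mice was left out, with an edgeR adjusted p of 0.131 without mouse P200_20.1_ELS_LPS. Ncf1 thus met the threshold on adjusted p in both conditions and missed the fold threshold in both.

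Ncf4, the p40phox subunit that binds membrane phosphoinositides, did not pass the test with all mice. It was 60.8 to 199 CPM (median 82.5) in CTR-PBS and 91.1 to 139 (median 115) in CTR-LPS, with a log2 fold change of 0.24 (SE 0.21, edgeR adjusted p = 0.517). The value of 199 CPM was that of mouse P200_1.1_CTR_PBS, and the next highest CTR-PBS mouse had 92.0 CPM. Without the 3 libraries with few detected genes the log2 fold change was 0.53 (edgeR adjusted p = 0.000703). In ELS the PBS mice had 64.0 to 94.4 CPM and the LPS mice 93.7, 99.9, 102, 116 and 159 CPM, so that 1 LPS mouse lay under the highest PBS mouse. The log2 fold change there was 0.62 (SE 0.23, edgeR adjusted p = 0.0731), and 0.62 (edgeR adjusted p = 0.000269) without the 3 libraries.

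Cybb, the catalytic subunit, was low in adult mice. In ELS-PBS it was 0.782 to 3.69 CPM (median 2.47), and in ELS-LPS it was 2.72, 6.37, 7.45, 11.7 and 19.8 CPM. Only the lowest LPS mouse lay within the range of PBS. The mean was 4.27-fold higher after LPS, with a log2 fold change of 2.1 (SE 0.67, edgeR adjusted p = 0.0279, exact permutation p = 0.0173). Mouse P200_20.1_ELS_LPS had the highest value, and without it the log2 fold change was 1.66 (edgeR adjusted p = 0.123). The call was also lost without mouse P200_17.3_ELS_LPS and without mice P200_2.1_ELS_PBS or P200_4.1_ELS_PBS, with edgeR adjusted p of 0.0541 to 0.0684.

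In CTR, Cybb was 0.850 to 17.9 CPM (median 1.57) with PBS and 0.143 to 11.3 (median 4.87) with LPS. The log2 fold change was 0.17 (SE 0.58, edgeR adjusted p = 0.907). Mouse 1.1 with 17.9 CPM was above all LPS mice, and the other 6 PBS mice had at most 4.12 CPM. Without the 3 libraries the log2 fold change was 1.3 (SE 0.55, edgeR adjusted p = 0.0916). Cyba, the stabilising partner of Cybb, did not pass in either condition, with medians of 1214 and 1172 CPM in CTR-PBS and CTR-LPS and 1059 and 1262 CPM in ELS-PBS and ELS-LPS. On the log2 scale the change was -0.13 in CTR (SE 0.18, edgeR adjusted p = 0.738) and 0.35 in ELS (SE 0.21, edgeR adjusted p = 0.302).

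Acod1, the itaconate enzyme, had no count in any of the 6 ELS-PBS mice, whose libraries hold 18257922 to 34990227 counts each. In ELS-LPS it had 0, 0.185, 3.39, 6.43 and 7.19 CPM, from 0, 3, 46, 89 and 131 counts in mice P200_4.2_ELS_LPS, P200_11.2_ELS_LPS, P200_2.2_ELS_LPS, P200_20.1_ELS_LPS and P200_17.3_ELS_LPS. So 3 mice were clearly above 0 and the other 2 were at or near it. Against a floor of 3 counts over all ELS-PBS mice, the mean was at least 169-fold higher after LPS (edgeR adjusted p = 0.000313, exact permutation p = 0.0303). The gene kept an edgeR adjusted p of at most 0.00117 when any single mouse was left out.

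In CTR-PBS, 3 mice had no Acod1 count, 3 had 1 count and mouse P200_1.1_CTR_PBS had 53 counts (2.69 CPM). The CTR-LPS mice had 0 to 4.22 CPM (median 1.26), and 5 of 7 had 13 counts or more. With mouse P200_1.1_CTR_PBS the log2 fold change was 1.75 (SE 1.15, edgeR adjusted p = 0.36, exact permutation p = 0.0938), and without it 5.47 (edgeR adjusted p = 0.00293, exact permutation p = 0.0326). This 1 library decided the call. The sums of other gene lists in mouse P200_1.1_CTR_PBS were 224 CPM for the LPS response genes, against 185 to 254 CPM over CTR-PBS and 3052 to 9059 CPM over CTR-LPS, 0.305 CPM for 12 neutrophil markers (0 to 0.285 CPM in the other CTR-PBS mice), 0.712 CPM for 9 monocyte markers (8.53 to 13.9 CPM in the others) and 503 CPM for 6 astrocyte markers (299 to 392 CPM in the others).

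Gch1, which opens tetrahydrobiopterin synthesis, gave the clearest response of the nitric oxide genes. In CTR-PBS it was 0 to 1.92 CPM (median 1.16), and in CTR-LPS 3.71 to 18.5 (median 8.86). The groups did not overlap, and the mean was 9.09-fold higher after LPS, with a log2 fold change of 3.17 (SE 0.83, edgeR adjusted p = 0.00494, exact permutation p = 0.000583). The call was kept when any single mouse was left out, with log2 fold changes of 2.90 to 3.39. In ELS-PBS it was 1.63 to 4.05 CPM (median 2.72), and the ELS-LPS mice had 5.73, 8.45, 8.52, 8.85 and 63.2 CPM. The groups again did not overlap (exact permutation p = 0.00433, the smallest that 6 against 5 mice allow), with a log2 fold change of 2.79 (SE 0.89, edgeR adjusted p = 0.0294). The 63.2 CPM of mouse P200_20.1_ELS_LPS carried much of this value, and without it the log2 fold change was 1.53 (edgeR adjusted p = 0.325). The call was also lost without mice P200_2.1_ELS_PBS, P200_11.1_ELS_PBS or P200_17.2_ELS_PBS, with edgeR adjusted p of 0.052 to 0.0623.

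The 250 bases before the RefSeq start sites of Gch1 and Acod1, the tested members with the largest log2 fold changes after LPS, are shown because kappaB elements and TATA boxes are known features of fast inflammatory promoters. Capitals mark matches to a kappaB consensus or to TATAAA on either strand. The coordinates are of GRCm38.p6, the build of the RefSeq table, and not of the build used for the counts. The Gch1 stretch is on the minus strand at chr14:47189414-47189663 and the Acod1 stretch on the plus strand at chr14:103046762-103047011.
Gch1: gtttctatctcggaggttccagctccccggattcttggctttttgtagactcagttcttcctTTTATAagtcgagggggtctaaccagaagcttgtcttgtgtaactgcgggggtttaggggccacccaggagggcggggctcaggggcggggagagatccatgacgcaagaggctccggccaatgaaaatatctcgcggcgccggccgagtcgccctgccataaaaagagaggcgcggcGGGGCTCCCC
Acod1: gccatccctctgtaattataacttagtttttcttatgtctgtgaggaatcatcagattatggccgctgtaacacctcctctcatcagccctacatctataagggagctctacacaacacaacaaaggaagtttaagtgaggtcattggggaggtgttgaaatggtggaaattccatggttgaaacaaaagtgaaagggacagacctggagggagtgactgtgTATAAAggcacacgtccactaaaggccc

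Gch1 held a kappaB match that starts 10 bases before its start site, and a reversed TATA match 188 bases before it. Acod1 held a TATA match 28 bases before its start site and no kappaB match in these letters. Over windows that run from 250 bases before to 50 bases after the start site, 4.51% of 32851 mouse promoters held a kappaB match and 13.6% a TATA match. RefSeq promoters were matched for 6 members, Cybb, Cyba, Ncf1, Acod1, Gch1 and Ass1. Cybb held 3 matches to GAAANNGAA, an element of interferon response sites (8.56% of promoters), and 1 to the AP-1 site TGANTCA (7.81%). Ncf1 held 1 match to the gamma-activated site TTCNNNGAA (8.3%) and 1 to GAAANNGAA, which share bases. The letters GAGGAA, a PU.1 core found in 28.3% of promoters, matched in Cybb and Acod1. These are matches of letters only, and no binding was measured.

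Nos2 was at the edge of detection. It had no count in any of the 25 P9 mice or the 6 ELS-PBS mice, and 1 count in 1 of 7 CTR-PBS mice. In CTR-LPS 3 of 7 mice had counts, with 12, 1 and 1, and in ELS-LPS 3 of 5 mice had counts, with 15, 24 and 25 (1.11, 1.32 and 1.80 CPM). So the 2 other ELS-LPS mice looked like the PBS mice. Against a floor of 3 counts over all ELS-PBS mice the mean was at least 41.5-fold higher in ELS-LPS. An exact permutation test gave p = 0.121 in ELS and p = 0.437 in CTR. In a fit without the filter on low counts, the edgeR adjusted p was 0.0104 in ELS and 0.227 in CTR.

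Arg2 and Ass1 did not pass in either condition. Arg2 had medians of 3.99 and 4.16 CPM in CTR-PBS and CTR-LPS, and 3.48 and 3.84 CPM in ELS-PBS and ELS-LPS, with log2 fold changes of 0.35 (SE 0.30, edgeR adjusted p = 0.514) and 0.11 (SE 0.34, edgeR adjusted p = 0.899). Ass1 stayed under 2 CPM in every mouse. It had counts in 2 of 6 ELS-PBS mice and in all 5 ELS-LPS mice (0.0585, 0.680, 0.878, 1.11 and 1.16 CPM), with a log2 fold change of 2.28 (SE 1.45, edgeR adjusted p = 0.351, exact permutation p = 0.0303). In CTR its log2 fold change was 0.82 (SE 1.25, edgeR adjusted p = 0.755).

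**Figure D2:**
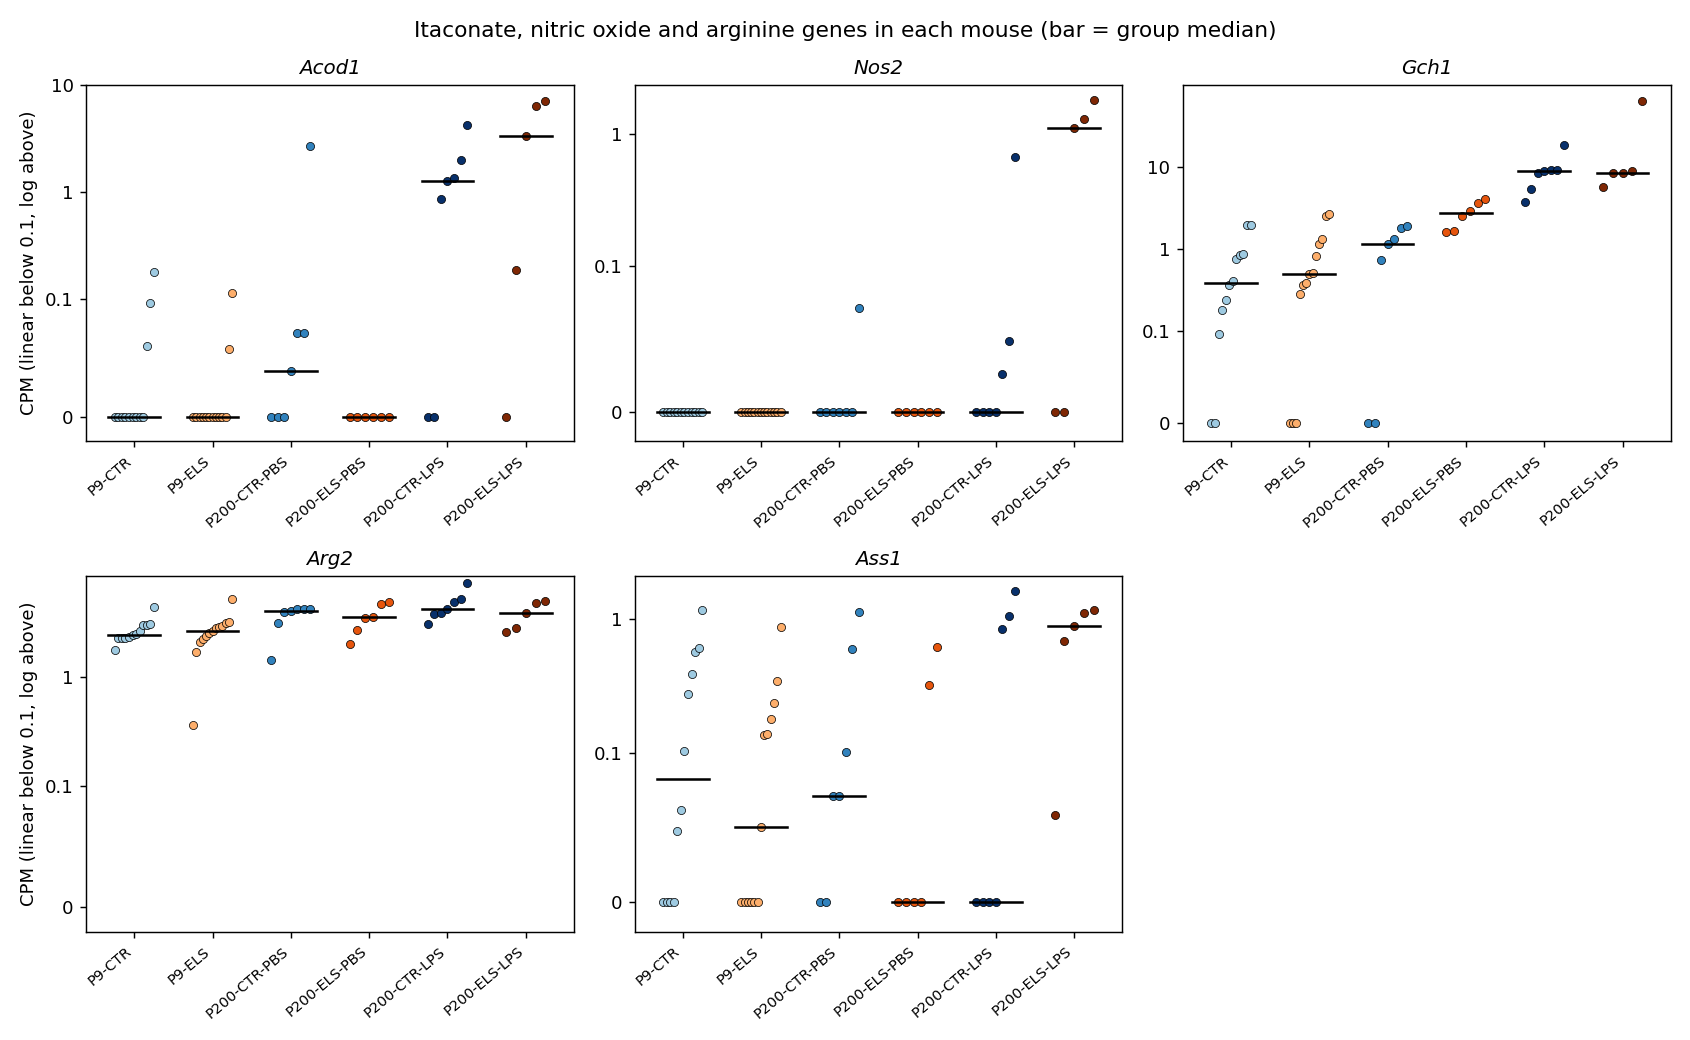
CPM of Acod1, Nos2, Gch1, Arg2 and Ass1, 1 point per mouse and 1 bar per group median, on axes that are linear below 0.1 CPM and logarithmic above. Gch1 separates LPS from PBS mice in both conditions, while Acod1 and Nos2 are spread from 0 to 7.19 and 1.80 CPM among the ELS-LPS mice.

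High values of several members fell in the same LPS mice. More than 1 Nos2 count was found in 4 of 12 LPS mice, mouse P200_8.2_CTR_LPS and mice P200_2.2_ELS_LPS, P200_17.3_ELS_LPS and P200_20.1_ELS_LPS, and these had the 4 highest Acod1 levels (3.39 to 7.19 CPM, against at most 2.01 CPM in the other LPS mice). This was chosen after the values were seen and was not tested. The summed LPS response genes were highest in mice P200_8.2_CTR_LPS (9059 CPM) and P200_20.1_ELS_LPS (9425 CPM) of their groups, and 6651 and 6612 CPM in mice P200_2.2_ELS_LPS and P200_17.3_ELS_LPS. In ELS-LPS, 8 of 12 neutrophil markers had a count, with sums of 0.221 to 10.0 CPM, the highest in mouse P200_17.3_ELS_LPS, and with Ly6g, Mpo, Elane and Retnlg at 0. In CTR-LPS 8 of 12 also had a count, with sums of 0 to 1.89 CPM. All 9 monocyte markers had a count in ELS-LPS, with sums of 5.26 to 25.2 CPM, the highest in mouse P200_20.1_ELS_LPS, against 4.22 to 9.94 CPM in CTR-LPS and 7.16 to 18.5 CPM in ELS-PBS. Mouse P200_2.2_ELS_LPS, with 3.39 CPM of Acod1, had the lowest neutrophil sum of its group (0.221 CPM) and a monocyte sum of 13.4 CPM. Mouse P200_8.2_CTR_LPS had the lowest monocyte sum of its group (4.22 CPM) and a neutrophil sum of 0.394 CPM. Astrocyte markers summed to 299 to 503 CPM in CTR-PBS, 483 to 613 CPM in CTR-LPS, 314 to 453 CPM in ELS-PBS and 418 to 584 CPM in ELS-LPS. The part of other cells in these values was not tested. In sorted bulk cells, more cells that carry a transcript and more transcript per cell cannot be told apart.

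The next question was whether LPS acted differently in ELS and CTR mice. No member was called for the interaction, and of all tested genes 0% were called by edgeR's quasi-likelihood test, with 980 at an unadjusted p under 0.05, 11 called by DESeq2 and 66 by the likelihood-ratio test. The members nearest to the threshold were Acod1, with an interaction of 7.46 on the log2 scale (SE 2.04, edgeR adjusted p = 0.281), and Cybb, with 1.93 (SE 0.88, edgeR adjusted p = 0.784). Without the 3 libraries these were 3.75 (edgeR adjusted p = 0.658) and 0.80 (edgeR adjusted p = 0.865). For Gch1 it was -0.39 (SE 1.14, edgeR adjusted p = 1.00) and for Ncf1 -0.17 (SE 0.31, edgeR adjusted p = 0.992). Fitted values of Acod1 that involve ELS-PBS, where every mouse was at 0, depend on the prior count and are no bound. A difference between the conditions was thus not shown for Cybb or Acod1, though each was called in ELS alone.

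**Figure D3:**
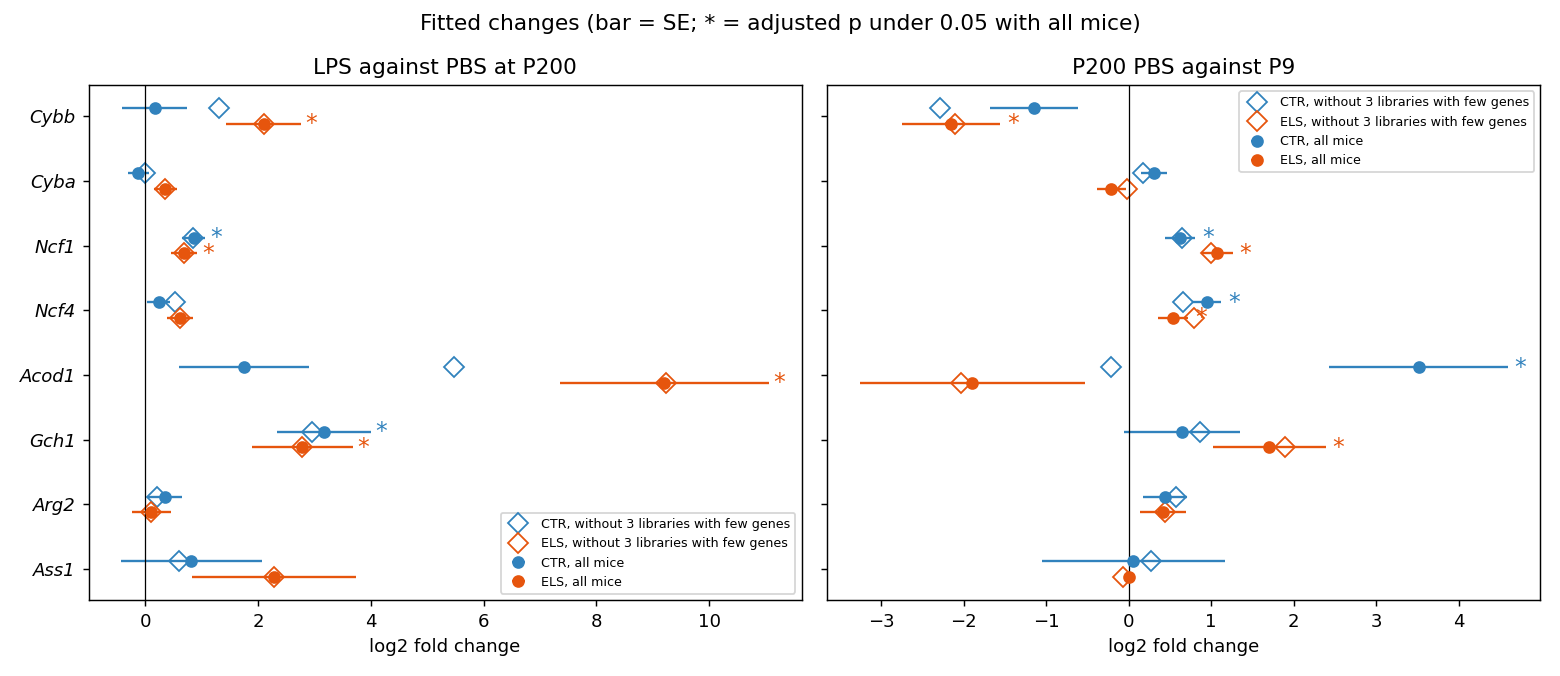
Log2 fold changes of the 8 tested members for LPS against PBS at P200 and for P200 PBS against P9, with SE, in CTR (blue) and ELS (orange). Diamonds give the fit without the 3 libraries with few detected genes, which moves Acod1 in CTR from 1.75 to 5.48 for LPS and from 3.51 to -0.22 for age. The values of Acod1 in ELS rest on a group at 0 and are no bound. The bar is left out where the change was under 0.01.

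**Figure D4:**
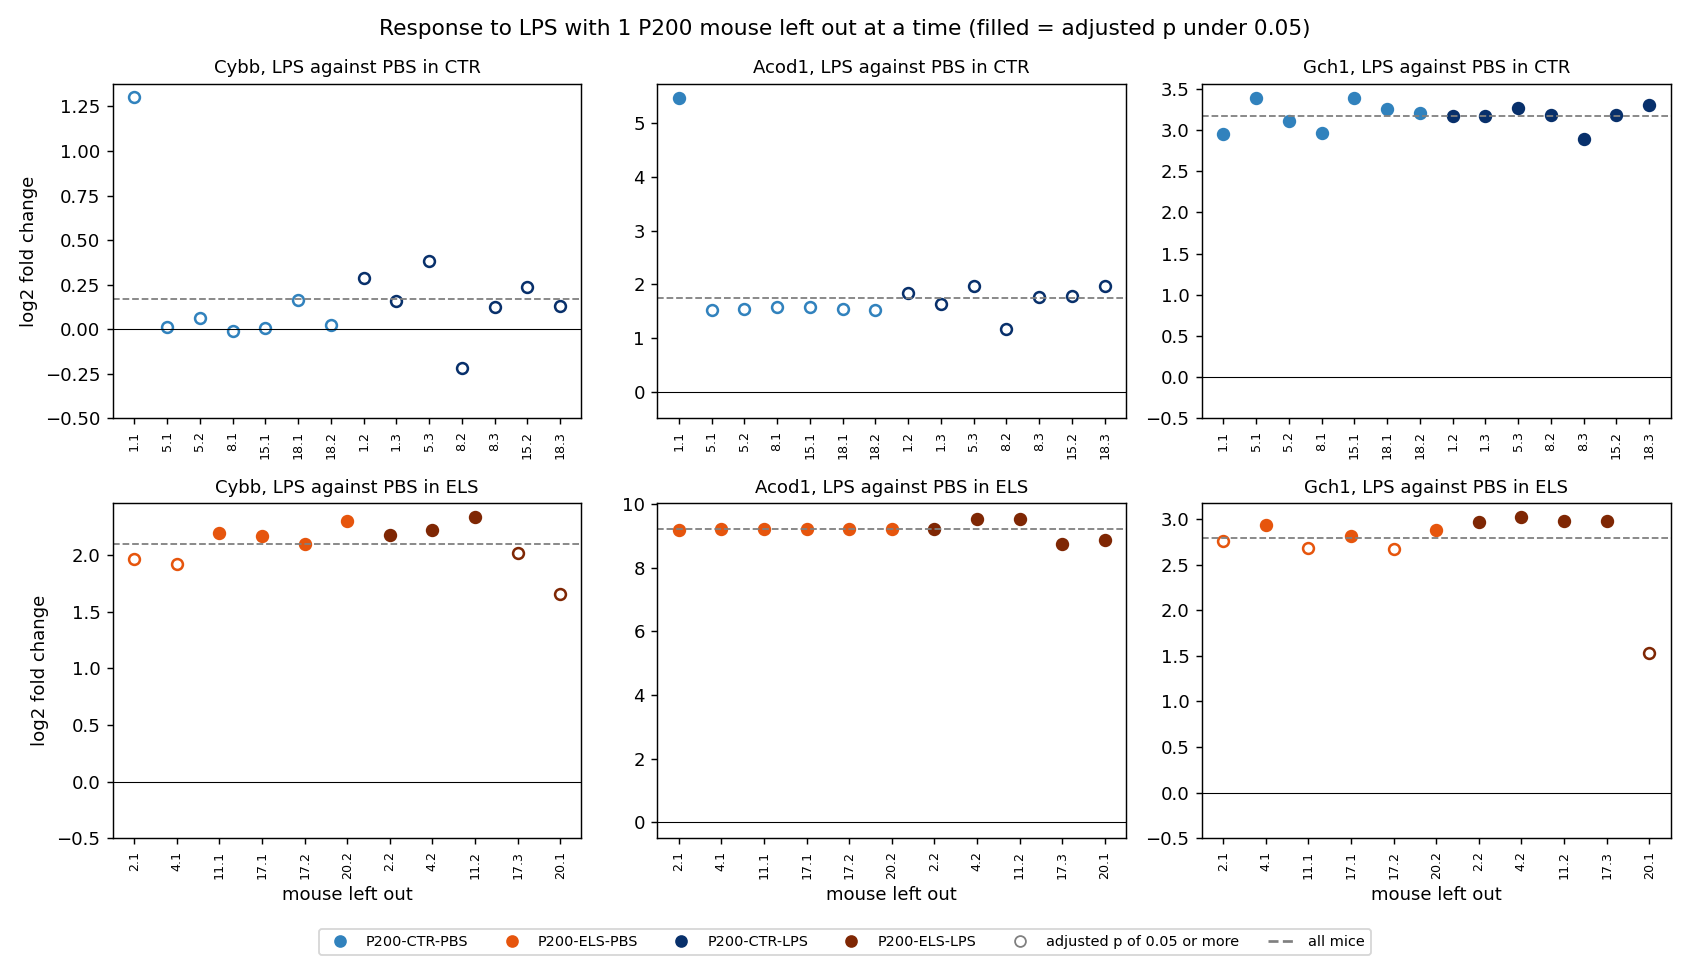
Log2 fold change of Cybb, Acod1 and Gch1 for LPS against PBS, in CTR (top) and ELS (bottom), with the mouse on the horizontal axis left out, coloured by its group and named by the numbers in its label. Without mouse P200_1.1_CTR_PBS the values of Cybb and Acod1 in CTR were 1.3 and 5.47, and without mouse P200_20.1_ELS_LPS those of Cybb and Gch1 in ELS were 1.66 and 1.53.

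Other genes of the same pathways were taken from lists and counted in the same fits. These lists, too, were chosen with earlier results of these data known. With LPS, the list counts stand beside calls in either direction for 9.62% (CTR) and 7.86% (ELS) of all genes. At these shares a count of 0 in a short list says little about a pathway. Of 10 tested oxidase partners none was called with LPS. Of them Pak1, a kinase downstream of Rac, fell in CTR (log2 fold change -0.37, edgeR adjusted p = 0.0188) and in ELS (-0.41, edgeR adjusted p = 0.028). Rac2, the GTPase of the active oxidase, rose in ELS (0.54, edgeR adjusted p = 0.0156). The largest differences in this list were those of Hvcn1, a proton channel, in CTR (0.39, edgeR adjusted p = 0.30) and of Noxo1 in ELS (1.01, edgeR adjusted p = 0.512). Of 17 tested citrate cycle genes none was called, and Idh1, a cytosolic isocitrate dehydrogenase, fell in CTR (-0.65, edgeR adjusted p = 0.00772) and in ELS (-0.65, edgeR adjusted p = 0.0248). Of 6 tested tetrahydrobiopterin genes other than Gch1 none passed, the largest difference being that of Pcbd1 (1.36, edgeR adjusted p = 0.443 in CTR and 1.07, edgeR adjusted p = 0.614 in ELS).

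Of 14 tested arginine and nitric oxide partners 1 was called in each condition, beside 9.62% (CTR) and 7.86% (ELS) of all genes. This was Slc7a1, an importer of arginine and other cationic amino acids. It was 0 to 7.23 CPM (median 5.68) in CTR-PBS and 19 to 55.8 (median 41.2) in CTR-LPS. The groups did not overlap, and the log2 fold change was 3.06 (SE 0.48, edgeR adjusted p = 1.96e-06). In ELS it was 0.271 to 13.5 CPM (median 9.50) with PBS and 17.0 to 53.7 (median 48.8) with LPS, again without overlap, with a log2 fold change of 2.22 (SE 0.51, edgeR adjusted p = 0.00139). The largest difference among the others in ELS was that of Nos1, the neuronal synthase (4.1, edgeR adjusted p = 0.0877). Gatm, which uses arginine to start creatine synthesis, rose by 0.45 on the log2 scale in both (edgeR adjusted p = 0.00878 in CTR and 0.0243 in ELS). The median change of this list on the log2 scale was 0.36 in CTR mice and 0.40 in ELS mice. Pak1, Rac2 and Gatm were named after their values were seen.

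The comparisons of ELS with CTR at one age and treatment gave no member that passed. No member was called at P9, in PBS mice or in LPS mice, beside 0%, 0.156% and 0% of all tested genes. At P9, 914 genes had an unadjusted p under 0.05, DESeq2 called 0 and the likelihood-ratio test 1, and in LPS mice these counts were 796, 2 and 10. At P9 the 8 log2 fold changes of members lay between -0.81 (Ass1, SE 0.95) and 0.38 (Gch1, SE 0.60), and the mice of both groups overlapped for every member. Among LPS mice the largest was Acod1 with 1.3 (SE 1.2, edgeR adjusted p = 1.00). None of the 4 partner lists had a gene that passed in these 3 comparisons, and the largest differences were those of Gucy1a1, a subunit of the nitric oxide receptor, at P9 (-1.19, edgeR adjusted p = 0.965) and of Slc7a2, an importer of cationic amino acids, in PBS mice (-3.72, edgeR adjusted p = 0.423) and in LPS mice (-4.45, edgeR adjusted p = 0.979).

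Among PBS mice, Acod1 had a log2 fold change of -6.16 (SE 1.69, edgeR adjusted p = 0.103) for ELS against CTR, which rested on mouse P200_1.1_CTR_PBS, and without the 3 libraries it was -2.45 (edgeR adjusted p = 0.635). Gch1 was 0 to 1.92 CPM in CTR-PBS and 1.63 to 4.05 CPM in ELS-PBS. The mean was 2.74-fold higher in ELS-PBS, with overlap between 1.63 and 1.92 CPM and 2 CTR-PBS mice at 0 counts (mice P200_1.1_CTR_PBS and P200_8.1_CTR_PBS). An exact permutation test of log2 CPM gave p = 0.00699, and p = 0.013 without mouse P200_1.1_CTR_PBS, not adjusted over the 9 members and 6 comparisons so tested, while edgeR gave a log2 fold change of 1.45 (SE 0.81, adjusted p = 0.601). Cybb had -0.90 (SE 0.61, edgeR adjusted p = 0.715) with all mice and 0.23 (edgeR adjusted p = 0.968) without the 3 libraries, so its sign turned. Within an age each nest number belonged to 1 condition, and nest and condition cannot be fully told apart. Litters were assigned to a condition as a whole, and the CTR-PBS and ELS-PBS mice came from 5 nest numbers each. The permutation tests and the edgeR fit took mice that share a nest number as independent.

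The last question was how the genes changed between P9 and P200 in mice without LPS. Ncf1 and Ncf4 rose with age in both conditions and Cybb fell in ELS. Of the 8 members 1 was called in CTR (Acod1), beside 26.4% of all tested genes, and 3 in ELS (Ncf1 and Gch1 higher, Cybb lower), beside 26.2%. The ages came from separate animals, and P9 tissue had no Percoll step for myelin removal, so age and this step cannot be told apart.

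Ncf1 was 113 to 164 CPM (median 142) in P9-CTR, below all CTR-PBS mice, with a log2 fold change of 0.63 (SE 0.18, edgeR adjusted p = 0.00437). In P9-ELS it was 26.9 to 222 CPM (median 123), with a log2 fold change of 1.07 (SE 0.19, edgeR adjusted p = 5.04e-06). Without the 3 libraries it was 0.99 (edgeR adjusted p = 2.13e-07), and without mouse P9_19.2_ELS alone it was 0.98. Both lie under the fold threshold, so that the call was lost. The lowest P9-ELS value was that of mouse P9_19.2_ELS, with few detected genes, which also had the highest Ncf4 level of its group (124 CPM). Ncf4 was 38.4 to 58.3 CPM (median 52) in P9-CTR and 36.2 to 124 (median 42.9) in P9-ELS. Its log2 fold change with age was 0.94 (SE 0.18, edgeR adjusted p = 2.43e-05) in CTR and 0.54 (SE 0.19, edgeR adjusted p = 0.0165) in ELS, where it was 0.46 (edgeR adjusted p = 0.0595) without mouse P200_17.1_ELS_PBS.

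Cybb was higher at P9, with 1.93 to 22.8 CPM (median 7.72) in P9-CTR and 1.27 to 16.2 CPM (median 10.0) in P9-ELS. The P9-ELS mean was 4.43-fold above that of ELS-PBS, with a log2 fold change with age of -2.15 (SE 0.60, edgeR adjusted p = 0.00287). In CTR it was -1.15 (SE 0.53, edgeR adjusted p = 0.075) with all mice and -2.28 (edgeR adjusted p = 0.000397) without the 3 libraries. Border-associated macrophages, another macrophage type of the brain, had summed markers of 469 to 917 CPM at P9, with all 6 markers present, and of 1.80 to 9.61 CPM at P200. Neutrophil markers were 9.96 to 30.8 CPM at P9, with Ly6g, Ltf and Retnlg at 0, and at most 1.29 CPM in P200 PBS mice. Their part in the fall of Cybb was not tested.

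Acod1 at P9 had counts in 5 of 25 mice, with at most 0.177 CPM. The call in CTR (log2 fold change 3.51, SE 1.09, edgeR adjusted p = 0.00735) rested on mouse P200_1.1_CTR_PBS, and without it the value was -0.20 (edgeR adjusted p = 0.898). The P9 medians of Gch1 were 0.389 CPM (CTR) and 0.505 CPM (ELS), with no count in 5 of the 25 mice. The gene rose with age in ELS (log2 fold change 1.70, SE 0.68, edgeR adjusted p = 0.0399), a call that was lost when any of 12 single mice was left out. In CTR its log2 fold change was 0.64 (SE 0.70, edgeR adjusted p = 0.486). Cyba, Arg2 and Ass1 did not pass with age, though Arg2 passed in CTR without the 3 libraries (0.57, edgeR adjusted p = 0.0175). No member was called for the interaction of age and condition, beside 0.0299% of all genes.

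Of the 14 tested arginine and nitric oxide partners 7 were called lower with age in CTR and 7 in ELS, and none higher. Of all genes 26.4% and 26.2% were called in either direction. In both conditions these were Gatm, Ddah1 (which breaks down an inhibitor of nitric oxide synthases), Nos1, Gucy1b1 (the other subunit of the nitric oxide receptor) and Slc7a2, joined by Gucy1a1 and Slc7a1 in CTR and by Odc1 and Prmt1 in ELS. Gatm had medians of 514 CPM in P9-CTR and 264 CPM in CTR-PBS (log2 fold change -1.0, edgeR adjusted p = 4.24e-10), and Ddah1 8.51 and 0.0709 CPM (-5.84, edgeR adjusted p = 3.69e-08). Slc7a1 had medians of 14.7 and 5.68 CPM (-1.67, edgeR adjusted p = 0.00111). Neuron markers, at 18.8 to 107 summed CPM at P9 and 2.54 to 11.8 CPM in P200 PBS mice, moved with these genes. Of 6 neuron markers 6 were called lower in CTR and 4 in ELS, and none higher. Of 6 astrocyte markers 5 were called lower and 1 higher in each condition. Of 4 tested endothelial markers 2 were called lower in each, and none higher. Of 6 oligodendrocyte lineage markers 3 were called lower in CTR and 1 in ELS, and 1 was called higher in each. The summed CPM of the astrocyte, endothelial and oligodendrocyte lineage lists had higher medians in P200 PBS mice than at P9 in both conditions. The part of these cell types was not tested.

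The counts of the other lists also stand beside calls in either direction for 26.4% (CTR) and 26.2% (ELS) of all genes. Of 6 tested tetrahydrobiopterin genes 2 were called lower in CTR and 1 in ELS. Of these, Pcbd1 was called lower in CTR (-2.92, edgeR adjusted p = 0.0161). Spr, the last enzyme of tetrahydrobiopterin synthesis, rose in CTR (0.77, edgeR adjusted p = 4.55e-05) and ELS (0.58, edgeR adjusted p = 0.00263) and was named after its values were seen. Idh2, a mitochondrial isocitrate dehydrogenase, was called lower in CTR (-1.24, edgeR adjusted p = 6.09e-10) and ELS (-1.27, edgeR adjusted p = 1.45e-09). Of 17 tested citrate cycle genes 2 were called in CTR and 1 in ELS, all lower, with median log2 fold changes of -0.37 and -0.45 beside -0.09 and -0.01 over all genes. Cybc1, a chaperone needed for stable gp91phox, was called higher in CTR, from 171 to 362 CPM (1.12, edgeR adjusted p = 6.11e-10), and rose in ELS (0.94, edgeR adjusted p = 9.06e-08) while Cybb itself fell in ELS. Rac2 fell in CTR (-0.92, edgeR adjusted p = 6.8e-08) and ELS (-0.99, edgeR adjusted p = 4.21e-08), and was named after its values were seen. Of 10 tested oxidase partners 1 was called in CTR (Cybc1) and 0 in ELS.

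Over the 25 P200 mice, after group means of log2 CPM were taken away, the genes most like Ncf1 were Slc41a1 (Pearson r = 0.93, Spearman rho = 0.90), Pik3r5 (r = 0.91, rho = 0.89) and Gtf2ird2 (r = 0.88, rho = 0.81). They were the highest of 11051 genes ranked, which share libraries and depth, and no test was made. Gtf2ird2 is the gene that shares exon bases with Ncf1 on the opposite strand. For Gch1 they were Rcc1l (r = 0.86, rho = 0.70), Rap2b (r = 0.84, rho = 0.79) and Lrrc59 (r = 0.84, rho = 0.83).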

How the data were processed

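The authors trimmed reads with cutadapt 2.10, aligned them to GRCm39 using STAR and counted unique reads in exons with HTSeq 0.11.0, and they deposited the raw counts per gene, without normalization. The annotation release and strand setting are not given in the sources used here. The 50 mice were grouped by age, condition and treatment in their labels, and the number before the point of a label was taken as the nest, which no source used here defines. GENCODE vM39 (GRCm39) held 52610 of 53700 gene identifiers and gave positions and exon lengths.

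A gene entered the tests (16696 did) when its counts, scaled by library totals without TMM factors, reached 1 CPM in more than 2 mice. With TMM factors from edgeR 4.0.16 (R 4.3.3), 1 mean per group was fitted over all 50 mice, and contrasts between them were taken to the quasi-likelihood test of edgeR, with Benjamini-Hochberg adjustment over all tested genes. The SE was the log2 fold change divided by the root of the F statistic, which is not usable near a change of 0. Log2 CPM used a prior count of 2. Exact permutation tests over P200 mice were two-sided. The fit was also run on simulated counts in which the changed genes had a mean over 1 CPM. These held no nest effect and no outlying library, so the run does not bear on genes near 0 or on single mice. Folds against groups without counts used a floor of 3 counts over the group, which covers counting error only.

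Members and lists were chosen with earlier results of these data known. The text names all 9 members, partner genes that were called (or the largest difference where fewer than 4 were called), apart from some that are not reported here, and the 3 genes most like each of the 2 members with the smallest LPS adjusted p in CTR. Promoters came from RefSeq (GRCm38.p6). Alternatives were the likelihood-ratio test, DESeq2 1.42.0, DESeq2 size factors in edgeR, library totals alone, no filter or a filter of 1 CPM in 25 mice, the groups compared alone, a log2 fold change threshold of 0.1, voom of limma 3.58.1 with a random effect for nests (correlation 0.0778), counts summed per nest, a nest block, a fit without the 3 libraries with fewer than 16000 detected genes, and leaving out each of the 50 mice. Tables and plots were made with Python 3.11.15, pandas 2.3.3, scipy 1.17.1 and matplotlib 3.10.9.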

Additional observations from a re-analysis of the deposited data

Results flagged for a closer look

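For each member and each P200 group, the gap between the most extreme mouse and its nearest neighbour was divided by the range of the group and compared with Dixon's 95% critical value. By this rule 10 values stood out over 34 pairs of a gene and a group. The rule picks about 1 in 20 groups of normally distributed values. Levels near 0 are not so distributed, and a single count among zeros always stands out, so the 10 cannot be set against chance. Mouse P200_1.1_CTR_PBS, with few detected genes, stood out for 5 members, being high for Cybb (17.9 CPM, next 4.12), Cyba (1914 CPM, next 1362), Ncf4 (199 CPM, next 92.0) and Acod1 (2.69 CPM, next 0.0712), and low for Arg2 (1.42 CPM, next 3.11). It did not for Ncf1.

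The other values were Gch1 in mouse P200_20.1_ELS_LPS (63.2 CPM, next 8.85) and in mouse P200_8.3_CTR_LPS (18.5 CPM, next 9.21), Cyba in mouse P200_11.2_ELS_LPS (1977 CPM, next 1266), Nos2 in mouse P200_8.2_CTR_LPS (0.675 CPM from 12 counts, next 0.0487), and Nos2 in mouse P200_15.1_CTR_PBS (0.0712 CPM from a single count, the others at 0).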

How the results depend on the processing

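The number of members called was 1 for LPS in CTR, and it was 2 without the 3 libraries, with limma voom and with the log2 fold change threshold of 0.1. For LPS in ELS it was 3, and 1 with the nest number as replicate block, where Cybb (adjusted p = 0.0581) and Gch1 (adjusted p = 0.0652) lost the threshold. For age in CTR it was 1. There it was 2 with library totals alone and with counts summed per nest, 3 with the threshold of 0.1, and 0 with the stricter filter and with the groups compared alone. Leaving out 1 mouse gave 1 to 2 members for LPS in CTR, 1 to 3 for LPS in ELS, 1 to 2 for age in CTR and 1 to 3 for age in ELS, and 0 members stayed at 0 in the comparisons of ELS with CTR and in both interactions. The lowest counts came without mouse P200_2.1_ELS_PBS or mouse P200_20.1_ELS_LPS (LPS in ELS) and without mouse P200_4.1_ELS_PBS (age in ELS), and the highest without mouse P200_1.1_CTR_PBS (LPS in CTR) and without mice P200_18.1_CTR_PBS or P200_18.2_CTR_PBS (age in CTR).

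Among single members, the sign turned for Acod1 with age in CTR without the 3 libraries (-0.22), and for Cybb with LPS in CTR with counts summed per nest (-0.17) and with the replicate block (-0.12). For Cybb in ELS against CTR with PBS it turned without the 3 libraries (0.23) and in the permutation test without mouse P200_1.1_CTR_PBS (0.26), an alternative chosen after seeing the data. With 1 mouse left out, this value ranged from -1.10 to 0.23, Cybb with LPS in CTR ranged from -0.22 to 1.3 and Acod1 with age in CTR from -0.20 to 4.28. The Cybb call in ELS was also lost with limma voom (adjusted p = 0.0596) and with counts summed per nest (adjusted p = 0.0507), and voom called Acod1 in CTR (log2 fold change 2.83, adjusted p = 0.0447). Over the members and comparisons with an unadjusted p under 0.05 and 5 chosen later, 240 values kept their direction and side of the threshold under an alternative, 13 newly passed it, 11 lost it and 5 turned sign. The causes were not tested beyond the mice named. In the 10 nests with PBS and LPS mice the correlation of deviations from group means was -0.0411 to 0.0841 (median 0.0355). For 4 of these nests the PBS mice were most like the LPS mice of their own nest. With so few mice per nest and no test made, this cannot decide whether nests paired the mice. Library totals alone shifted the median change of all genes from 0.00 to -0.12 (LPS in CTR), from -0.04 to -0.25 (LPS in ELS) and from -0.09 to -0.20 (age in CTR), and made 784 of 1642 LPS calls in CTR lower (601 of 1606 with TMM) and 876 of 1501 in ELS (530 of 1313). Ncf1 with LPS in ELS then gave 0.47 (adjusted p = 0.199). For ELS against CTR in PBS mice 26 genes were called, 153 with DESeq2, 191 with the likelihood-ratio test, 7 with counts summed per nest, 6 with DESeq2 size factors, 2 with no filter, 0 with voom and with the groups alone (1622 at an unadjusted p under 0.05 in the edgeR fit of all groups), and 1 (without mouse P200_1.1_CTR_PBS among others) to 75 (without mouse P200_15.1_CTR_PBS) with 1 mouse left out. Counts near 0 limit Acod1, Nos2 and Ass1.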
